A study of Mus musculus with 12 samples.

Results

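The growth hormone, insulin-like growth factor (IGF) and insulin genes of the liver were described here through 10 transcripts: Ghr, Stat5b, Socs2, Cish, Socs3, Igf1, Igfals, Igfbp1, Igfbp2 and Irs2. They were taken by gene symbol from the 34986 genes of the authors' table, and each symbol matched 1 row. The choice used no measured value. Livers came from 12 female C57BL/6 mice aged 16 weeks. Of these, 6 were treated with VPA (valproic acid, used against epilepsy and known for liver toxicity) and 6 with VPA plus OCA (obeticholic acid, an agonist of the bile acid receptor FXR), the group called VPA_OCA. All 12 mice had VPA in common, mice without it were not analysed here, and doses and duration were not given in the labels used here. The series asks what part FXR plays in liver injury by VPA, and this comparison asks how growth hormone and insulin transcripts differ once the FXR agonist is added.

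Growth hormone reaches the hepatocyte through its receptor, Ghr, which activates the kinase JAK2 and through it the transcription factor STAT5B. STAT5B raises Igf1 and Igfals, whose products circulate together, and also raises Cish and Socs2, whose proteins damp the receptor in a feedback loop. Socs3 is a related feedback inhibitor that inflammatory cytokines induce through STAT3. Insulin acts through IRS2 and AKT to restrain the factor FOXO1, and in its absence FOXO1 drives Igfbp1 and Irs2. The pattern of growth hormone release differs between male and female mice and sets the sex bias of many liver cytochrome P450 genes.

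Levels are given as normalized counts from the authors' table, which summed to between 20236900 and 22087711 per library. Means are ± SD with n = 6 per group. A fold change is the VPA_OCA mean minus the VPA mean of log2(normalized count + 1), with its SE, and understates the change of low genes. The adjusted p is that of limma (trend, Benjamini-Hochberg over all 19006 genes tested), and a gene passed the test where it was under 0.05. In both groups the libraries numbered 1 to 3 differed from those numbered 4 to 6 (all 6 of the first at or below -10.3 on the first principal component, all 6 of the others at or above 16.3), and the labels give no batch. VPA replicates 4 and 5 held skeletal muscle transcripts, with 6 marker genes summing to 470.4 and 118.7 normalized counts. In the other VPA livers the sum was 5.27 to 16.04 and in VPA_OCA 12.98 to 23.85. VPA replicate 5 also stood apart in female-biased genes, as described further on. Hepatocyte markers summed to between 1894000 and 3165000 in every library, and no tested gene of the 8 lists of cell type markers passed for the drug. Only 2 of 6 skeletal muscle, 1 of 4 pancreas and 4 of 5 adipocyte markers were high enough to be tested. In whole liver, fewer cells of a type and less RNA per cell cannot be told apart.

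Short stretches of promoter windows are shown first because they hold the motifs through which STAT proteins and insulin are known to act on this family. RefSeq promoter windows of 300 bases (250 before and 50 after a gene's start, GRCm38.p6) were found for 9 of the 10 genes, 14 windows in all, with none for Socs2. The STAT motif TTCNNNGAA, which reads the same on both strands, was in 3 genes, Cish, Socs3 and Igfals (4 of the 14 windows), and in 8.3% of the 32851 windows of the table. The insulin response motif CAAAACA was in 2 genes, Igfbp1 and Irs2, and in 6.28% of all windows. The FOXO motif TGTTTAC was in 1 Igfals window and in 3.65% of all windows. The FXR inverted repeat (GGNCA, 1 base of any kind, and the reverse complement of GGNCA) was in none of the 14, and in 0.676% of all windows. All were searched on both strands, and no match in these genes overlapped another. The 2 Cish motifs, at bases 251 to 259 and 262 to 270 of their window, lie after the RefSeq start. The Cish and Socs3 stretches also lie inside the bounds given further on for these genes. The Igfals stretch lies before the start given there, but inside the bounds of Igfals in the GENCODE annotation (24865997 to 24882010). A match is a description of letters in this window, not of binding. Capitals mark the motif, and each stretch runs 5′ to 3′ on the gene's strand.

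Cish (chr9:107296654-107296683, plus strand), with 2 STAT motifs side by side: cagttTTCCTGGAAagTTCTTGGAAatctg
Socs3 (chr11:117969487-117969546, minus strand), with 1 STAT motif: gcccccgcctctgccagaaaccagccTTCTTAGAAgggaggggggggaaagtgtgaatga
Igfals (chr17:24878147-24878206, plus strand), with 1 STAT motif in the second of 3 start windows (the first window holds another): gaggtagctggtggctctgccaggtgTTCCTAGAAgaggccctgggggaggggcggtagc
Igfbp1 (chr11:7197653-7197712, plus strand), with 1 insulin response motif: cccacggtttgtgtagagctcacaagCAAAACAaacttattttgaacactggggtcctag

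None of the 10 genes passed the test, while 137 of all 19006 genes did (0.721%). All 10 passed the filter on low values. With the replicate number as a block, where 210 of all genes were called (1.10%), again none of the 10 passed. Of the fold changes, 8 were positive and 2 negative, with a median of 0.24 beside -0.0005 over all genes tested. At an unadjusted limma p under 0.05 there were 3 (Igfbp2, Stat5b and Cish), a level that 9.55% of all genes reached. In none of the 10 did the 2 groups separate without overlap, as 1.44% of all genes did. The largest positive fold changes were those of the 3 feedback inhibitors Socs2, Socs3 and Cish, each 0.64, followed by Igfbp2. The plot of counts per liver shows this overlap gene by gene.

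**Figure D1:**
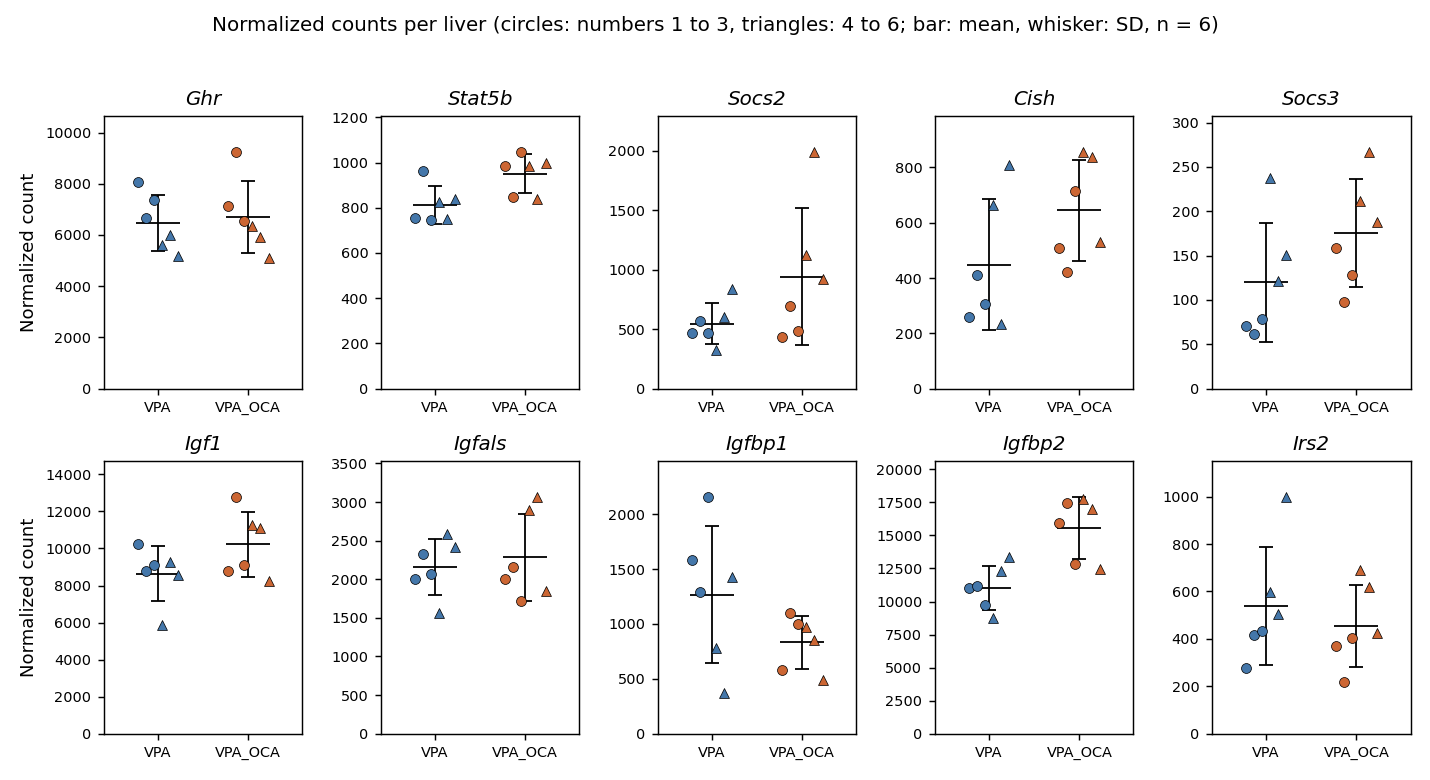
Normalized count (vertical axis, linear, from 0) of each of the 10 genes in the 6 VPA and 6 VPA_OCA livers, 1 point per liver, with circles for replicate numbers 1 to 3, triangles for 4 to 6, a bar at the mean and whiskers of 1 SD. The groups overlap in every panel, for Igfbp2 with VPA up to 13340 and VPA_OCA from 12460, and the triangles lie apart from the circles for Ghr, Socs3 and Irs2.

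Among the receptor and its signal, Ghr (ENSMUSG00000055737, chromosome 15, 3317760 to 3583492, GRCm38) ranged from 5190 to 8063 normalized counts in VPA (median 6316.5) and from 5106 to 9252 in VPA_OCA (median 6431). The medians lay close together, and VPA_OCA replicate 2, at 9252, lay above every VPA liver. Its fold change was 0.04 ± 0.14 (95% interval -0.26 to 0.35, limma adjusted p = 0.97). Stat5b (ENSMUSG00000020919, chromosome 11, 100780731 to 100850724) ranged from 746.9 to 963.6 in VPA (median 789.85) and from 839.8 to 1048 in VPA_OCA (median 984.05). All 6 VPA_OCA values lay above the VPA median and 4 lay above every VPA value, but VPA replicate 2, at 963.6, lay within the VPA_OCA range. Stat5b had a fold change of 0.23 ± 0.09, with a limma adjusted p of 0.42 and an unadjusted exact permutation p of 0.0173 (2-sided, 924 splits).

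Socs2, an SH2 protein that marks the growth hormone receptor for degradation (ENSMUSG00000020027, chromosome 10, 95385362 to 95417180), varied most within VPA_OCA. It ranged from 328.4 to 834.7 in VPA (median 521) and from 435.8 to 1993 in VPA_OCA (median 805.9). The coefficient of variation was 31.4% in VPA and 61.2% in VPA_OCA, the latter with VPA_OCA replicate 5 at 1993 and replicate 4 at 1125. Its fold change was 0.64 ± 0.32 (limma adjusted p = 0.54; unadjusted exact permutation p = 0.117), and 0.39 without VPA_OCA replicate 5. Within numbers 1 to 3 it measured 503 ± 60.1 in VPA and 539 ± 136 in VPA_OCA (n = 3 each). Within numbers 4 to 6 it measured 589 ± 254 and 1345 ± 570 (n = 3 each). In 4 to 6 the lowest VPA_OCA value, 918, lay above the highest VPA value, 834.7, and 16.8% of all genes separated in that way there. The difference between the effects of the 2 sets was 1.13 ± 0.43 on the log2 scale, and its limma interaction test had an unadjusted p of 0.0196 and an adjusted p of 0.54. None of the 10 genes passed that interaction test, as did 2 of all 19006 (0.0105%).

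Cish, the other STAT5 feedback gene (ENSMUSG00000032578, chromosome 9, 107296026 to 107302784), ranged from 232.9 to 809 in VPA (median 358.4) and from 421.6 to 857.3 in VPA_OCA (median 621.35). Of the VPA livers, 4 lay below every VPA_OCA liver, and replicates 4 and 6, at 665.4 and 809, lay among them. Cish had a fold change of 0.64 ± 0.29 (limma adjusted p = 0.51; unadjusted exact permutation p = 0.0909). With each library left out in turn the unadjusted exact permutation p ran from 0.0281 (without VPA replicate 6) to 0.173 (without VPA replicate 5).

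Socs3, the inhibitor that cytokines induce (ENSMUSG00000053113, chromosome 11, 117966079 to 117970047), ranged from 61.01 to 237.8 in VPA (median 100.16) and from 97.77 to 267.3 in VPA_OCA (median 173.25). The 3 lowest values were VPA replicates 1 to 3, and the highest VPA value was replicate 4. Socs3 had a fold change of 0.64 ± 0.31 (limma adjusted p = 0.54). It measured 70.0 ± 8.86 in VPA and 128 ± 30.5 in VPA_OCA within numbers 1 to 3 (n = 3 each). For 4 to 6 the corresponding means were 170 ± 60.5 and 222 ± 40.8 (n = 3 each). With a term for the 2 sets of numbers the limma adjusted p was 0.072. In the authors' deposited table Socs3 had an adjusted p of 0.018, beside 5.57% of the 12517 genes that the authors call present under 0.05, and Igfbp2 was the other of the 10 genes below 0.05 there.

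Among the IGF proteins, Igf1, the growth factor that the liver secretes in response to growth hormone (ENSMUSG00000020053, chromosome 10, 87858265 to 87937042), ranged from 5886 to 10240 in VPA (median 8955) and from 8244 to 12790 in VPA_OCA (median 10114). Igf1 had a fold change of 0.24 ± 0.14 (95% interval -0.06 to 0.55, limma adjusted p = 0.66). VPA replicate 4 gave the lowest value, 5886, and without it the fold change was 0.14. The antisense transcript Igf1os overlaps the 5′ end of Igf1 at 36 to 85.57 normalized counts, far below Igf1, and no source used here says whether counting took strand into account. Igfals, the subunit that holds IGF1 in its large circulating complex (ENSMUSG00000046070, chromosome 17, 24878770 to 24882008), ranged from 1568 to 2580 in VPA and from 1725 to 3068 in VPA_OCA. Its fold change was 0.06 ± 0.16 (95% interval -0.27 to 0.39, limma adjusted p = 0.96), and its sign changed with single libraries left out.

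Igfbp2, a binding protein that the liver secretes (ENSMUSG00000039323, chromosome 1, 72824503 to 72852474), came nearest to the threshold. It ranged from 8740 to 13340 in VPA (median 11070) and from 12460 to 17760 in VPA_OCA (median 16455). All 6 VPA_OCA livers lay above the VPA median, and 4 lay above every VPA liver. The means were 11047 ± 1659 and 15570 ± 2353, a 1.41-fold difference. The fold change was 0.49 ± 0.13 (95% interval 0.21 to 0.77), with a limma adjusted p of 0.12 and an unadjusted exact permutation p of 0.00866. Its p ranked 287 among 19006 genes. With a term for the 2 sets of numbers it passed, with a limma adjusted p of 0.0493, the single call among the 10 in a fit that called 2.13% of all genes. With the replicate block the limma adjusted p was 0.11. By set of numbers Igfbp2 differed by 0.52 (1 to 3) and 0.46 (4 to 6) on the log2 scale, and the difference ran from 0.43 to 0.56 with each library left out in turn (limma adjusted p from 0.09 to 0.27). In the authors' deposited table its log2 ratio was 0.49 and its adjusted p 0.0092.

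Igfbp1, the binding protein that insulin suppresses and FOXO1 drives (ENSMUSG00000020429, chromosome 11, 7197782 to 7202546), was the IGF gene with a negative fold change. It ranged from 369.9 to 2159 in VPA (median 1356.5) and from 490.6 to 1099 in VPA_OCA (median 910.35). Of the VPA livers, replicates 1, 2, 3 and 6 lay above every VPA_OCA liver, at 1287 to 2159, while replicates 4 and 5 were the lowest of their group at 778.8 and 369.9. The fold change was -0.47 ± 0.34 (limma adjusted p = 0.76). Replicates 4 and 5 were the 2 libraries with muscle transcripts. The muscle marker genes made up at most 0.00226% of the summed normalized counts of any library. The part of the muscle RNA in the Igfbp1 level of both was not tested. Without both, the groups did not overlap, as in 3.90% of all genes. The fold change was then -0.99 ± 0.22, with a limma adjusted p of 0.068. The unadjusted exact permutation p was 0.00476, the smallest that 4 against 6 livers allow, and 0.286 with all livers kept. As the livers left out held the 2 lowest VPA values, this separation and the smaller p follow from leaving them out. Without VPA replicate 5 alone the fold change was -0.78 ± 0.25 (limma adjusted p = 0.25), where 2.18% of all genes did not overlap and Igfbp1 did. Without VPA replicate 3, the liver with the highest value, it was -0.27 (limma adjusted p = 0.89). Within numbers 1 to 3 it measured 1675 ± 444 in VPA and 893 ± 273 in VPA_OCA, and within 4 to 6 858 ± 533 and 770 ± 250 (n = 3 each). The interaction test of that difference had an unadjusted p of 0.117 (limma adjusted p = 0.69).

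Irs2, the docking protein that passes the insulin signal on in hepatocytes (ENSMUSG00000038894, chromosome 8, 10984681 to 11008458), ranged from 277.8 to 999.1 in VPA (median 467.3) and from 216.3 to 691.3 in VPA_OCA (median 413.9). VPA replicate 6 gave the highest value and VPA_OCA replicate 2 the lowest. Irs2 had a fold change of -0.23 ± 0.29 (limma adjusted p = 0.88). It was -0.02 without VPA replicate 6, -0.03 without VPA_OCA replicate 2, -0.39 without VPA replicate 1 and -0.37 without VPA_OCA replicate 4. A processed transcript on the opposite strand, 9530052E02Rik, overlaps its start at no more than 4.299 normalized counts.

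**Figure D2:**
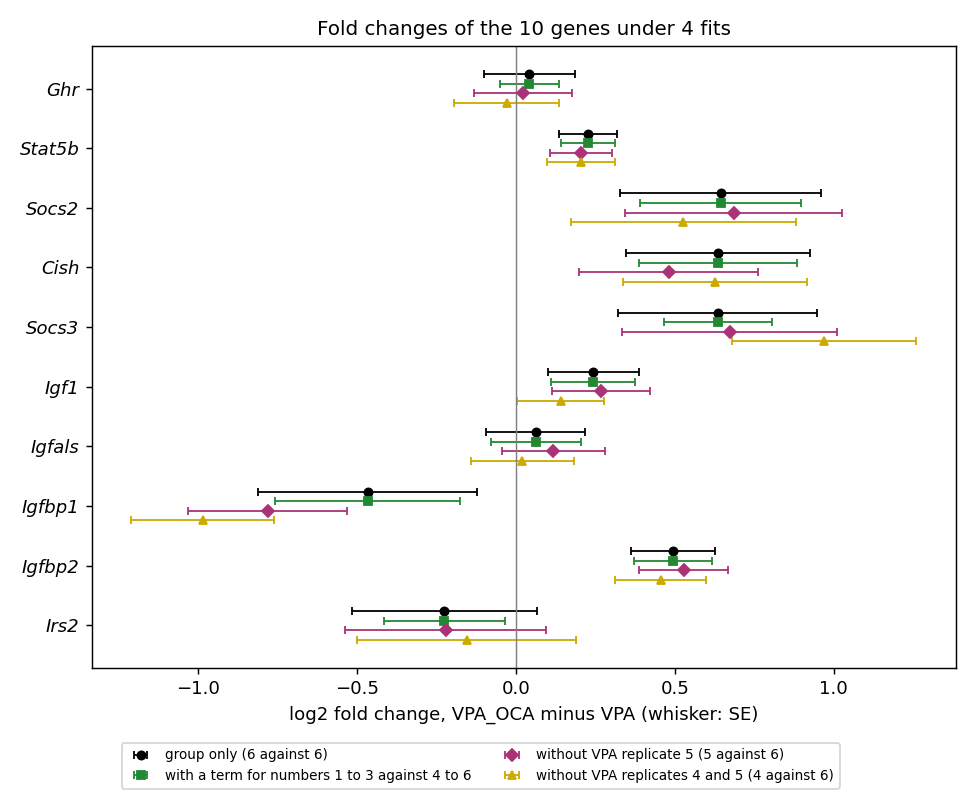
Log2 fold change (horizontal axis, VPA_OCA minus VPA) of each of the 10 genes under 4 limma fits, with whiskers of 1 SE: group only, a term for replicate numbers 1 to 3 against 4 to 6, without VPA replicate 5, and without VPA replicates 4 and 5. Igfbp2 stays between 0.46 and 0.53 in these fits, and Igfbp1 goes from -0.47 to -0.99.

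Between the sets of replicate numbers 3 of the 10 genes differed, a share near the 25.1% of all genes that did. Stellate cell markers also went with the sets, without overlap: their summed level was 5176 to 6829 (1 to 3) and 7063 to 9361 (4 to 6). Hepatocyte markers summed to 1894000 to 2839000 and 2564000 to 3165000. The part of cell makeup in the differences between the sets was not tested. In the limma fit with group and set, Socs3 was higher in 4 to 6 by 1.01 ± 0.17 on the log2 scale (adjusted p = 0.0008). Irs2 was higher by 0.84 ± 0.19 (limma adjusted p = 0.0048). Ghr was lower in 4 to 6, by -0.39 ± 0.09 (limma adjusted p = 0.0068). Ghr measured 7362 ± 707 in VPA numbers 1 to 3 and 5596 ± 397 in 4 to 6, with 7635 ± 1431 and 5784 ± 623 in VPA_OCA (n = 3 each). Within VPA no Ghr value of 1 to 3 lay below any of 4 to 6, and the same held within VPA_OCA. Irs2 measured 376 ± 85.2 and 700 ± 264 in VPA, and 331 ± 101 and 578 ± 139 in VPA_OCA. Within VPA and within VPA_OCA every Irs2 value of 4 to 6 lay above those of 1 to 3. How many of all genes separated between the sets in this way was not counted. The separation of Ghr, Irs2 and the stellate sum is therefore not shown to be particular to them. Within each set alone none of the 10 genes passed for the drug, where 0.637% (1 to 3) and 0.500% (4 to 6) of all genes did. Igfbp1, Igfbp2, Socs3 and Cish separated without overlap in 1 to 3, and Stat5b and Socs2 in 4 to 6, where 18.6% and 16.8% of all genes did.

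Per length, in the authors' FPKM over all 12 livers, Igfbp2 was the most abundant of the 10 at 583 ± 130, followed by Igf1 at 224 ± 38.8 and Ghr at 189 ± 32.6. The next were Igfals (49.2 ± 9.79), Igfbp1 (32.1 ± 15.0), Socs2 (24.5 ± 14.9), Cish (11.6 ± 4.79), Stat5b (11.3 ± 1.62), Socs3 (6.32 ± 2.92) and Irs2 (3.67 ± 1.5). In that order Igfbp2 and Igf1, Ghr and Igfals, and Stat5b and Socs3 differed by more than the sum of their SDs, and the other 6 neighbouring pairs by less. Socs2 and Cish ranked differently by group. Igfbp1 lay above Socs2 in VPA (38.6 and 17.9) and below it in VPA_OCA (25.6 and 31.1). Cish lay below Stat5b in VPA (9.45 and 10.4) and above it in VPA_OCA (13.7 and 12.2). Igfbp2 lay above Igf1 in each group, at 392.9 to 567 FPKM against 143.9 to 236 in VPA and 557 to 763.9 against 200.4 to 296.3 in VPA_OCA.

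Between livers of the same group and set of numbers, Igf1, Igfals and Igfbp2 varied together. After the 4 means of group and set were removed, Pearson's r over the 12 libraries was 0.92 for Igfals with Igfbp2, 0.84 for Igf1 with Igfbp2, 0.82 for Igf1 with Igfals and 0.81 for Igfals with Socs2. Igfbp1, also secreted, had lower values with these 3 genes (0.24 with Igf1, 0.13 with Igfals and 0.22 with Igfbp2). Ghr and Stat5b had an r of -0.75. These are descriptions of 12 libraries that share depth and scaling within each library. The 3 genes most like Igfbp1 after the means were removed, among 11481 with a mean log2 value above 5, were Slc38a2 (0.97), Btg1 (0.96) and Zbtb2 (0.95). Among those most like Igf1 were Inhbc (0.95) and A430018G15Rik (0.94), and among those most like Socs2 were Kti12 (0.98) and Eif4ebp1 (0.93).

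Other genes of the pathway were read from 7 lists. None of 18 tested genes of growth hormone receptor signalling passed (8 positive, 10 negative, 3 at an unadjusted limma p under 0.05), and their median log2 fold change was -0.02. Of all genes tested, 49.9% were positive and 9.55% had an unadjusted limma p under 0.05. Onecut1, a hepatocyte factor under growth hormone control, averaged 313 ± 81.2 (VPA) and 560 ± 191 (VPA_OCA), with 0.80 ± 0.22 (limma adjusted p = 0.14). It passed with the term for the sets (limma adjusted p = 0.032). The phosphatase gene Ptpn11 ranged from 1059 to 1185 in VPA and from 832.9 to 1069 in VPA_OCA (limma adjusted p = 0.20). The nuclear receptor gene Hnf4a measured 10078 ± 931 and 8589 ± 640 (limma adjusted p = 0.43).

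Of 11 tested genes of the IGF system, none passed, with a median of -0.06. The IGF receptor gene Igf1r measured 34.8 ± 7.40 in VPA and 28.3 ± 5.44 in VPA_OCA, and Igf2r, which clears IGF2, 678 ± 129 and 600 ± 199. The protease gene Htra1 measured 28.0 ± 8.14 and 34.1 ± 11.8. Igfbp4, another secreted IGF binding protein, measured 31365 ± 3993 in VPA, with a fold change of -0.06 ± 0.13 (limma adjusted p = 0.95). The remaining binding proteins Igfbp3, Igfbp5, Igfbp6 and Igfbp7 had fold changes from -0.12 to 0.13, none past the test. Pappa and Pappa2 were too low to be tested.

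Of 22 tested genes of insulin signalling, none passed. The median was -0.09, with 17 negative and 5 positive, and 6 had an unadjusted limma p under 0.05. Among all genes tested, 49.9% were positive and 9.55% were under that level. Foxo1 averaged 766 ± 56.8 (VPA) and 606 ± 88.9 (VPA_OCA), with -0.35 ± 0.10 (limma adjusted p = 0.19). Grb10, an adaptor that inhibits the insulin and IGF receptors, measured 61.2 ± 6.17 and 43.5 ± 8.02 (limma adjusted p = 0.21). Its relative Grb14, which inhibits the insulin receptor in liver, measured 706 ± 67.8 and 885 ± 110 (limma adjusted p = 0.22) and passed with the term for the sets (limma adjusted p = 0.021). Between the sets of numbers 10 of the 22 differed, 8 of them higher in 4 to 6, where 25.1% of all genes differed, 2441 higher and 2321 lower.

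Of 14 genes that insulin or FOXO1 regulates, none passed for the drug, with a median of -0.10. The lipogenic factor gene Srebf1 measured 6100 ± 2381 in VPA and 7989 ± 3094 in VPA_OCA, and the hormone gene Fgf21 53.5 ± 13.7 and 92.8 ± 63.1. By the set of numbers 5 of these 14 differed, beside the same 25.1% of all genes, and all 5 were higher in 4 to 6: Srebf1 by 1.02, Fasn by 2.07, Angptl8 by 1.08, Pnpla3 by 1.51 and Gadd45a by 0.71 on the log2 scale. The IL-6 and STAT3 acute phase list, read beside Socs3, had 15 tested genes and none past the test. Of these, 10 were positive, beside 49.9% of all genes tested, 5 were negative, and the median was 0.11. The serum amyloid genes Saa1, Saa2 and Saa3 were among the positive ones, and the 3 with the smallest p were negative. The IL-6 receptor gene Il6ra averaged 1378 ± 340 (VPA) and 934 ± 286 (VPA_OCA; limma adjusted p = 0.33), Hp 45757 ± 5928 and 35350 ± 7545, and Lbp 1955 ± 423 and 1504 ± 447.

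**Figure D3:**
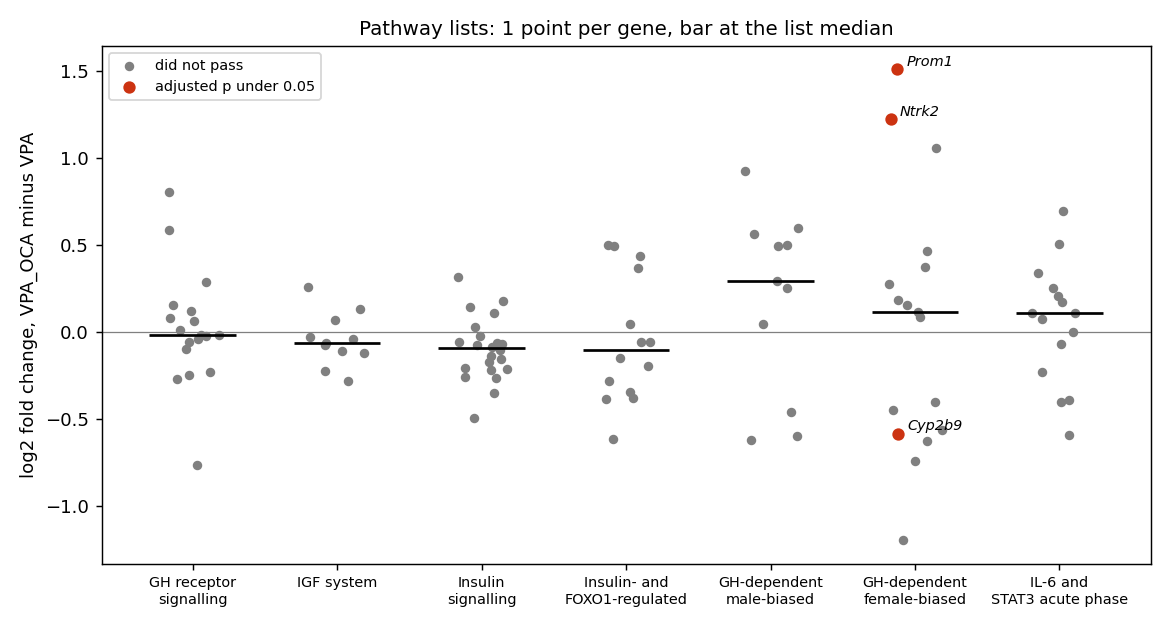
Log2 fold change (vertical axis, VPA_OCA minus VPA) of every tested gene of the 7 pathway lists, 1 point per gene, with a bar at each list's median and red points for an adjusted p under 0.05. The 3 red points, Ntrk2, Prom1 and Cyp2b9, all lie in the list of female-biased genes.

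Sex-biased genes that depend on growth hormone held the 3 calls of the pathway lists. Of 17 female-biased genes, 2 rose, 1 fell and 14 did not pass, with a median of 0.12. The same fit called 0.721% of all genes. The receptor gene Ntrk2 rose from 219 ± 69.3 to 498 ± 80.9, with a fold change of 1.22 ± 0.18 (limma adjusted p = 0.0038). Prom1, which encodes the membrane protein prominin, rose from 43.7 ± 13.0 to 131 ± 47.4 (1.51 ± 0.27, limma adjusted p = 0.012). The cytochrome P450 gene Cyp2b9 fell from 9553 ± 1062 to 6372 ± 721 (-0.58 ± 0.11, limma adjusted p = 0.014). Of 11 tested male-biased genes none passed, with a median of 0.30. Nudt7, a peroxisomal hydrolase, measured 2815 ± 785 and 4042 ± 381 (limma adjusted p = 0.14), Cyp7b1 222 ± 43.2 and 160 ± 16.8, and Cyp2d9 1160 ± 816 and 661 ± 87.4. Without VPA replicate 5 the Cyp2d9 mean in VPA was 831 ± 137, and its fold change went from -0.62 to -0.32.

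VPA replicate 5 stood apart from the other 11 libraries in the female-biased list. It was the lowest of all 12 at 8 of the 17 female-biased genes and the highest at 5 of the 11 male-biased genes. The next highest counts of this kind were 2 in each list. Its median deviation from the gene medians was -0.76 (log2) over the female-biased genes, against -0.26 to 0.44 in the others. Over the male-biased genes it was 0.74, close to the 0.68 of VPA_OCA replicate 2, which was the highest at Mup20 and Serpina3k. The genes in the next sentences were chosen after their values were seen. Cyp3a16 measured 10.6 normalized counts in VPA replicate 5, against 1217 to 6908 in the other livers, and Cyp3a41a 2189 against 24030 to 65090. The sulfotransferase gene Sult2a1 measured 183.4 there. Related genes of the Cyp3a family can share reads, so the level of each is uncertain. In the other direction, the male-biased genes Cyp2d9 and Slco1a1 reached 2808 and 877.4 in this liver. Of the factors that set the sex bias, Bcl6, a repressor with a higher level in males, measured 460.3 against 57.21 to 164 in the others, and Cux2, a factor with a higher level in females, was at its lowest of all 12, 527.9. The Y-linked gene Eif2s3y was at 0 in all 12 libraries, and Xist measured 11700 in VPA replicate 5, within the 8215 to 16810 of the others, so this liver matched its label as female.

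Among the 10 genes, VPA replicate 5 measured 9280 normalized counts of Igf1, 5984 of Ghr, 605 of Socs2 and 747.9 of Stat5b, each within the range of the other VPA livers. Its Igfals, 2580, was the highest of the VPA livers. Its Cish (232.9) and Igfbp1 (369.9) were the lowest of all 12 livers. Without VPA replicate 5 none of the 10 genes passed, and the 10 fold changes kept their signs. In that fit 131 of all genes were called (0.689%), 46 of them lower. The count of female-biased genes that fell went from 1 to 3, with Cyp2b9 joined by Cyp17a1, a steroid hydroxylase, and Hao2, a peroxisomal hydroxyacid oxidase (limma adjusted p = 0.038 and 0.0029). With VPA replicate 4 also left out, Cyp17a1 no longer passed (limma adjusted p = 0.076) and Cyp3a16 did (limma adjusted p = 0.0065). Thus 3 again fell, in a fit that called 0.816% of all genes. With all livers kept, the Cyp3a16 fold change was positive, at 0.16 (limma adjusted p = 0.99). VPA replicates 5 and 4 held its lowest VPA values, 10.6 and 2023, so its call is not independent of leaving them out. Hao2 measured 660 ± 126 in the other 5 VPA livers, 98.7 in replicate 5 and 148.2 to 381.4 in VPA_OCA, a 3.13-fold difference without that liver. The count that rose stayed at 2, the median went from 0.12 to -0.54, and Nudt7 alone of the male-biased genes rose (limma adjusted p = 0.037), with a median of 0.64 for that list. VPA replicate 5 was singled out by its values in these lists, so the moves of both medians follow from leaving it out. The added calls are not independent of that choice.

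**Figure D4:**
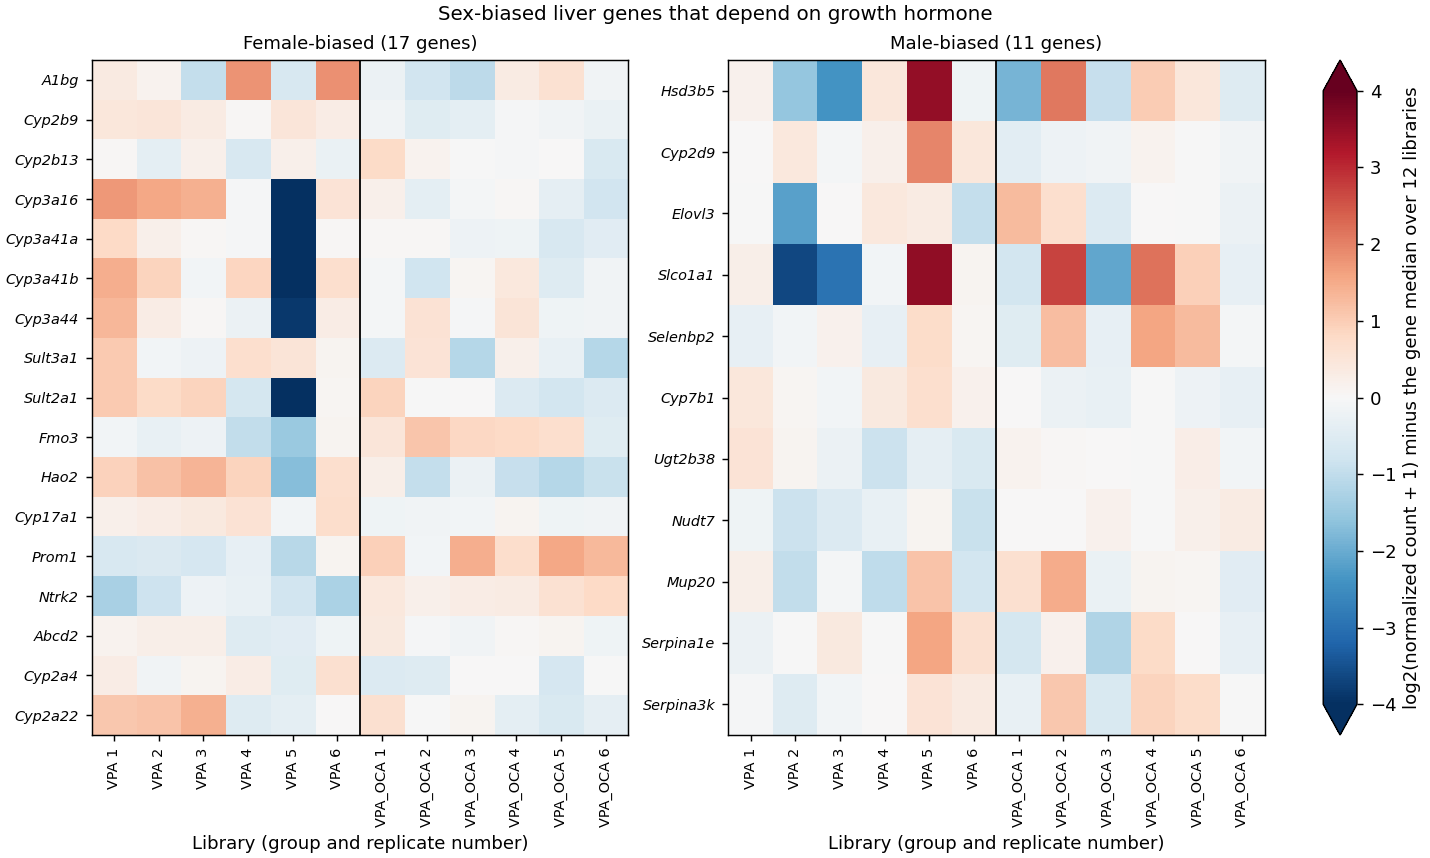
Log2(normalized count + 1) minus the gene's median over the 12 libraries (colour, blue below and red above, limited to a size of 4) for 17 female-biased and 11 male-biased genes in rows and the 12 libraries in columns, with a line between VPA and VPA_OCA. The column of VPA replicate 5 is dark blue at Cyp3a16, Cyp3a41a, Cyp3a41b, Cyp3a44 and Sult2a1 and red at Hsd3b5, Cyp2d9 and Slco1a1, while Ntrk2, and Prom1 in all but VPA_OCA replicate 2, are red across VPA_OCA.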

How the data were processed

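Livers were flash frozen, RNA was taken up in Trizol and libraries were made with an Illumina TruSeq kit, per the labels' protocols. The build GRCm38.p5 and the tool edgeR (version absent) come from the submitters' processing notes; for aligner, counter and strand nothing is given in the sources used here. The authors deposited 1 table, which per the file headers holds normalized counts (a signal per gene), FPKM values, p-values and log2 ratios from their own test, and for each gene its GC fraction and length. Low values clustered at a step per library, which gave estimated depths of 17879222 to 37746632 reads. Only 80% to 84.7% of low values lay within 0.1 of whole multiples, so no count model was run. Cells holding a decimal comma (238 p-values, 88 adjusted p-values, 10536 log2 ratios, 218 library values) were divided by 1000, after which adjusted p-values recomputed from the p-values differed from the deposited ones by at most 0.538%. Symbols turned into dates (26) were looked up by gene ID.

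A gene was tested where 6 or more libraries reached a normalized count of 1, which kept 19006. Groups were compared with limma 3.58.1 (R 4.3.3) on log2(value + 1), with trend and group as the only term, a procedure tested on simulated data. Replicate numbers come from the titles. Same-numbered libraries correlated in their deviations from the group means (r 0.15 to 0.478, over 0.1 in 6 of 6 pairs), so the block is given where it changes a call. Such libraries also share a set of numbers, so these values cannot tell a pairing from the difference between the sets. Only 4 of the 12 libraries correlated best with their own number, so a pairing by number is not established. The labels do not tie libraries to separate treatments or days, and p-values measure the spread between these samples. The 10 genes, the lists, the sets of numbers and the tests were chosen with earlier results of these data known. Named genes are the 10, every gene of a list past the threshold or otherwise up to 3 with the smallest p, and the 3 most like a member; a few genes that the rule names are not reported here. Alternatives were other filters, scalings, pseudocounts, FPKM, variance models, the block, the sets, and libraries left out. Figures were drawn with matplotlib 3.10.9.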

Additional observations from a re-analysis of the deposited data

Results flagged for a closer look

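Checked here were 136 groups of 6 values, from the 10 genes and the growth hormone and named list genes (68 genes). Of these groups, 8 had a liver far from the other 5, a share near the about 1 in 20 that chance gives. None of the 8 was in the 10 genes themselves. VPA replicate 5 gave 5 of them: Cyp2d9 at 2808 normalized counts (673.4 to 980.4 in the other 5), Bcl6 at 460.3 (67.45 to 164), Serpina1e at 557.9 (157.8 to 292.7), Slco1a1 at 877.4 (5.05 to 86.89) and Hsd3b5 at 132 (1.23 to 15.11). In VPA_OCA, Stat5a measured 178.8 in replicate 2 (243.9 to 255.2), Cyp17a1 8251 in replicate 4 (6869 to 7185) and Sult2a1 13110 in replicate 1 (4289 to 7211).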

How the results depend on the processing

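Across 26 alternative fits and the authors' deposited test, the 10 fold changes kept direction and side of the threshold in 259 of 270 cases. The authors' table and the term for the sets gave 3 further calls: Igfbp2 in both and Socs3 in the authors' table, so that 1 of the 10 genes was higher with the term and 2 in the authors' table. Signs changed for Ghr (-0.0068 with array weights, -0.029 without the 2 VPA libraries with muscle transcripts, -0.018 and -0.055 without VPA replicate 6 or VPA_OCA replicate 2, from -0.055 to 0.117 over all 12 left out in turn) and for Igfals (-0.12 within numbers 1 to 3, -0.026, -0.013 and -0.030 without VPA replicate 4 or VPA_OCA replicate 4 or 5, from -0.030 to 0.136 over the 12); the cause was not tested. The unadjusted Ghr exact permutation p in fits with a changed sign was 0.876, 0.905 and 0.673 (0.459 to 0.985 over the 12), and the Igfals exact permutation p was 0.874, 0.944 and 0.861 (0.452 to 0.944 over the 12). The Igfbp1 interaction of drug with set went from 0.92 to -0.019 without the 2 muscle libraries, where 5 of the 10 genes rather than 3 differed by set. With 1 library left out, 3 to 4 differed by set, 0 passed for the drug and 0 for the interaction. Over all genes, 84 were higher and 53 lower. With the replicate block, a fit that pairs libraries by number, these became 129 and 81, with the term for the sets 254 and 150, and 418 and 279 in the authors' deposited test. The 53 became 26 without trend, 29 within numbers 4 to 6 and 28 to 49 with 1 library left out (63 to 97 higher). The block changed no call of the 10 genes. The lowest value of the 10 genes in any library was 61.01 normalized counts (Socs3), where counting error is largest.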
